A study of Mus musculus with 51 samples.

Results

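Loss of the muscle clock factor BMAL1 was examined in gastrocnemius muscle, the large calf muscle, of mice on high-fat diet. The comparison holds the 12 libraries of the Bmal1 line on high-fat diet in batch 1 (batch as the labels name it), out of 51 in the series. They are 5 from mice with a skeletal muscle-specific Bmal1 knockout (genotype label Bmal1KO, animals 1 to 5) and 7 from floxed controls of the same line (genotype Bmal1fx/fx, animals 1 to 7), 1 library per animal. All genes in the count table were members, and the columns were chosen by genotype, diet and batch label, with no measured value. Knockout animals carry the loss in muscle fibres as far as the labels say. The sources used here do not give the promoter that drives the recombinase, the deleted exons, or the age, sex and harvest time of the animals. Other animals of the line were used for comparison: 3 knockouts and 4 controls on regular chow in batch 1, and 4 knockouts and 8 controls on high-fat diet in batch 2. The study asked how BMAL1 and the hypoxia-inducible factors shape glucose metabolism in obesity.

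BMAL1, encoded by Arntl, pairs with CLOCK or NPAS2 and binds E-box elements to switch on the period, cryptochrome and REV-ERB genes, whose products repress it in turn. REV-ERB and ROR proteins compete on ROR elements, and the PAR-bZIP factors DBP, TEF and HLF and their opponent NFIL3 act on D-box elements. In skeletal muscle this loop is known for timing glucose uptake, glycolysis and fatty acid use over the day.

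Libraries held 11.0 to 14.7 M counts in knockouts and 10.0 to 14.0 M counts in controls. Across genes, log2 CPM correlated at 0.966 to 0.974 between knockouts, 0.956 to 0.974 between controls and 0.952 to 0.965 between a knockout and a control. Myofibre markers marked the tissue as labelled, with summed levels of 84536 to 103793 CPM in knockouts and 94776 to 113533 CPM in controls. The 8 T cell markers never passed 1 CPM in any of the 12 libraries. Outside these 8, 1 T cell receptor constant gene was tested, and it was higher in knockouts by the test described below. Mitochondrial transcripts held 33.7 ± 3.78% of counts in knockouts (SD, n = 5), against 37.7 ± 3.17% in controls (SD, n = 7). That difference of -4.05 percentage points lay within the spread of animals (exact permutation test over 792 splits, two-sided p = 0.0694). Without knockout 1, knockout 4, control 1 or control 2 its p fell under 0.05, and its size over all 12 omissions ran from -5.11 to -3.17 points.

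Of 12762 genes tested, 1149 (9.00%) differed between knockouts and controls at an adjusted p under 0.05, 488 (3.82%) higher and 661 (5.18%) lower in knockouts. Tests are edgeR quasi-likelihood tests on the counts, and differences are log2 fold changes of knockout over control with their standard error. Changes were mostly modest: the median was 0.52 among the higher and -0.58 among the lower genes, and 234 genes (1.83%) passed 2-fold, 80 higher and 154 lower. In 694 of the 1149 genes the values of the 5 knockouts and the 7 controls did not overlap at all. Over all tested genes, groups did not overlap for 2.51% with knockouts above and 3.57% with knockouts below. Calls were more frequent among abundant transcripts, from 2.7% of genes under an average log2 CPM of 2 to 33.7% over 8, while the median standard error went down from 0.39 to 0.092. Counts called in the gene lists below stand beside these shares, and beside 3.82% higher and 5.18% lower over all genes. Per animal, values are CPM scaled by TMM. Knockouts are given from animal 1 to animal 5, and controls by their lowest, median and highest animal. The balance of directions depended on the scaling: with no scaling beyond library totals, the median of all genes moved by 0.16 and 76.8% of calls were higher in knockouts, against 42.5% with TMM. Medians of the gene lists below moved up by 0.13 to 0.17 without scaling. Of the genes named below, Slc2a4, Nampt, Plin4, Actn3, Usp47 and Nr4a3 did not pass without scaling and kept their direction.

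E-box elements of clock genes and of a pair of other genes that were lower in knockouts are shown here, because BMAL1 acts through this motif. They come from the RefSeq promoter table (GRCm38.p6), which gives 250 bases before and 50 after each start and matched 9322 of the genes tested. Capitals mark CACGTG, read on both strands and the distance of its first base before the start follows each name. Pfkm and Mical2 were added after their values were seen. The Per1 window belongs to a start inside the gene, whose annotated span begins at chr11:69095217 (GENCODE M21). Both Tef windows also lie inside the annotated span of that gene, which begins at chr15:81802421.
Ciart, 116 bases before the start, chr3:95882327-95882356, minus strand: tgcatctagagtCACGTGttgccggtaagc
Ciart, 58 bases, chr3:95882269-95882298, minus strand: cgcagggggaggCACGTGcagaaccgcacg
Ciart, 44 bases, chr3:95882255-95882284, minus strand: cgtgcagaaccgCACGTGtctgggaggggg
Tef, 127 bases, chr15:81802534-81802563, plus strand: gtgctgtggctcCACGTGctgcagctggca
Tef, other start, 138 bases, chr15:81811264-81811293, plus strand: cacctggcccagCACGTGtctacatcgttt
Bhlhe41, 153 bases, chr6:145865556-145865585, minus strand: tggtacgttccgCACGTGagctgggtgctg
Per1, 166 bases, chr11:69098771-69098800, plus strand: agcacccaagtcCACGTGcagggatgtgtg
Cry1, 60 bases, chr10:85185097-85185126, minus strand: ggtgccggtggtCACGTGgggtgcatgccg
Pfkm, 136 bases, chr15:98092441-98092470, plus strand: aattaagtatgcCACGTGaagtaagtaatt
Mical2, 165 bases, chr7:112225659-112225688, plus strand: agggcttcagccCACGTGcgtccgaagctg
CACGTG stood in 11.9% of all 9322 genes, in 12.6% of the 499 genes lower in knockouts and in 9.97% of the 351 higher ones. Among clock genes in the table, it stood in 3 of the 10 that were lower in knockouts (Ciart, Tef and Bhlhe41) and in 2 of the 7 that were not (Per1 and Cry1). A match describes these letters in this window only.

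The other motifs of the loop were rarer. The D-box letters TTANGTAA stood in 1.82% of genes and occurred 2 times before Per3, and the ROR element TAGGTCA stood in 2.28%, among them Nfil3 and Arntl. They are shown for these genes, whose factors are described next. The Nfil3 window lies inside the annotated span of the gene, which reaches chr13:52981073.
Per3, 205 bases before the start, chr4:151044852-151044881, minus strand: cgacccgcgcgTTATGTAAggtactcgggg
Per3, 158 bases, chr4:151044805-151044834, minus strand: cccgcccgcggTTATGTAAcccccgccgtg
Nfil3, 12 bases, reverse complement of the motif, chr13:52981034-52981062, minus strand: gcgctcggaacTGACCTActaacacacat
Arntl, 30 bases after the start, chr7:113207530-113207558, plus strand: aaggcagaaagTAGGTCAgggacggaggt

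Among the clock activators, Clock rose and Arntl fell, while Npas2 did not pass the test. Arntl was at 5.56, 9.03, 8.28, 8.87 and 5.29 CPM in knockouts and at 12.2, 14.4 and 18.7 CPM in controls (-1.02 ± 0.22, adjusted p = 0.00255). All knockouts lay below all controls, but the 3′ tags counted here may lie outside the deleted part, so Arntl does not check the genotype. In knockouts Clock reached 37.4, 41.9, 41.3, 41.5 and 39.5 CPM, against 19.8, 23.9 and 26.98 CPM in controls (0.78 ± 0.09, adjusted p = 1.68e-07). The knockouts were tightly grouped above every control. Npas2, the alternative partner, reached 0.710 to 2.43 CPM in knockouts and 0 to 1.20 CPM in controls (1.11 ± 0.56, adjusted p = 0.272).

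Of the 6 tested genes of the period and cryptochrome list, 3 were lower and none higher in knockouts. Per2 and Per3, both repressors of the loop, and Ciart, which represses CLOCK and BMAL1, made up the 3. Per3 had 0.298, 0.815, 0.552, 0.785 and 1.74 CPM in knockouts, against 2.32, 3.29 and 5.83 CPM in controls (-2.02 ± 0.35, adjusted p = 9.93e-05). Per2 was at 1.49, 0.272, 1.105, 1.26 and 0.581 CPM in knockouts and at 1.59, 2.05 and 3.68 CPM in controls (-1.41 ± 0.33, adjusted p = 0.00365). Both period genes separated the groups with no overlap. In knockouts Ciart reached 0, 0.136, 0.316, 0.0785 and 0 CPM, against 0.402, 1.14 and 2.42 CPM in controls (-3.35 ± 0.69, adjusted p = 0.000908). Ciart was at or near 0 in every knockout, so its fold change rests on few counts. Per1, Cry1 and Cry2 behaved differently. Per1 spread widely, from 2.78 to 14.4 CPM in knockouts and from 3.51 to 11.3 CPM in controls (0.20 ± 0.32, adjusted p = 0.838). Cry1 ran from 7.85 to 13.9 CPM in knockouts, against 6.54 to 8.83 CPM in controls (0.42 ± 0.15, adjusted p = 0.0735). It passed as higher without knockout 2 (adjusted p = 0.0372), without knockout 4 (0.0309) and with no scaling (0.00819). Cry2 differed by 0.07 ± 0.15 (adjusted p = 0.896).

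**Figure D1:**
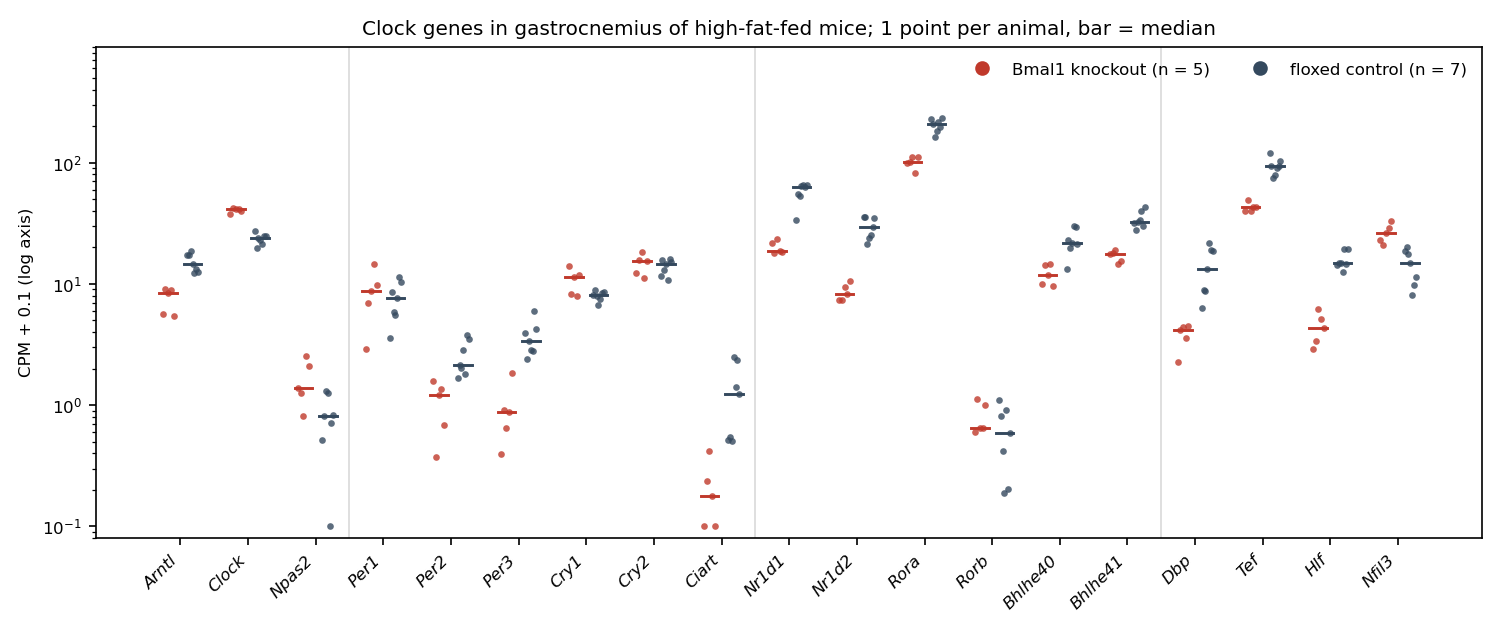
Level of each clock gene (CPM + 0.1, log axis) in each animal, with knockouts left of controls and bars at the medians. Knockout points of Nr1d1, Nr1d2, Rora, Bhlhe41, Tef, Hlf and Dbp lie below every control point, whereas those of Clock and Nfil3 lie above.

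The receptors and repressors of the second loop fell as a group, 5 of 6 lower and none higher. Nr1d1 had 21.7, 17.997, 23.5, 18.6 and 18.3 CPM in knockouts, against 33.8, 62.5 and 65.9 CPM in controls (-1.51 ± 0.14, adjusted p = 2.77e-08). Nr1d2 was at 7.25, 7.33, 9.31, 8.09 and 10.5 CPM in knockouts and at 21.3, 29.4 and 35.4 CPM in controls (-1.78 ± 0.15, adjusted p = 1.19e-10). These genes encode REV-ERBα and REV-ERBβ, and control 1 held the lowest Nr1d1 level among the controls. In knockouts Rora reached 99.96, 101, 111, 81.9 and 112 CPM, against 164, 209.8 and 233 CPM in controls (-1.01 ± 0.10, adjusted p = 4.56e-09). RORα is the activator on the same elements, and it fell beside its opponents. Bhlhe41 had 17.6, 17.8, 18.8, 14.4 and 15.4 CPM in knockouts, against 27.8, 32.3 and 42.6 CPM in controls (-1.02 ± 0.16, adjusted p = 5.99e-05). Bhlhe40 was at 9.93, 14.3, 11.8, 14.4 and 9.55 CPM in knockouts and at 13.1, 21.6 and 29.96 CPM in controls (-0.90 ± 0.18, adjusted p = 0.00133). Bhlhe41 and Bhlhe40 encode the E-box repressors DEC2 and DEC1; the groups were apart for Bhlhe41 and overlapped for Bhlhe40. Rorb did not pass (0.49 ± 0.57, adjusted p = 0.740).

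All 3 PAR-bZIP activators of D-box genes fell and their repressor Nfil3 rose. In knockouts Dbp reached 2.18, 4.07, 4.34, 3.46 and 4.39 CPM, against 6.27, 13.3 and 21.6 CPM in controls (-1.87 ± 0.38, adjusted p = 0.00376). Tef had 39.7, 49.2, 39.5, 42.95 and 43.3 CPM in knockouts, against 74.3, 92.98 and 119.5 CPM in controls (-1.12 ± 0.11, adjusted p = 1.04e-08). Hlf was at 2.78, 3.2599, 6.15, 5.03 and 4.19 CPM in knockouts and at 12.4, 14.7 and 19.3 CPM in controls (-1.85 ± 0.17, adjusted p = 4.34e-10). For each of the 3 every knockout lay below every control, and Dbp varied most among controls. In knockouts Nfil3 reached 23.03, 20.8, 26.4, 29.1 and 33.2 CPM, against 7.94, 14.8 and 20.2 CPM in controls (0.88 ± 0.24, adjusted p = 0.0239). Its groups did not overlap either, yet its adjusted p became 0.0593 without knockout 4, 0.0695 without knockout 5 and 0.0572 without control 7. Nfil3 was not called higher on chow or in batch 2, while 3 genes of its list of 4 were lower in each. Usp2, a deubiquitinase under clock control, did not pass (-0.51 ± 0.21, adjusted p = 0.180), as none of the 7 clock protein turnover genes tested did. Usp2 passed as lower with the high-fat libraries of batch 1 fitted alone (adjusted p = 0.00893) and with a replicate block by animal number (0.0120). The block also left out controls 6 and 7 and the chow libraries.

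Among called genes whose average log2 CPM was 2 or more, Sln rose most. Sln had 15.98, 37.01, 28.5, 49.2 and 53.05 CPM in knockouts, against 0.835, 2.17 and 9.82 CPM in controls (3.62 ± 0.47, adjusted p = 7.93e-05). Sarcolipin, its product, is an inhibitor of the sarcoplasmic calcium pump, and control 6 was the control nearest to the knockouts. Mrln was at 356, 296, 335, 294 and 345 CPM in knockouts and at 95.03, 113 and 135 CPM in controls (1.56 ± 0.09, adjusted p = 1.72e-14). Myoregulin is a micropeptide that acts on the same pump in fast fibres; knockouts and controls were far apart. In knockouts Casq2 reached 61.2, 59.6, 37.8, 79.3 and 48.2 CPM, against 13.7, 17.9 and 27.4 CPM in controls (1.54 ± 0.20, adjusted p = 5.75e-05). Casq2 encodes the cardiac and slow-fibre form of the calcium store protein calsequestrin. Of 31 tested genes of the calcium store and excitation-contraction list, 6 were higher and 5 lower in knockouts (median 0.03). Jph2, which ties the store to the surface membrane, was on the lower side, at 74.0 to 107 CPM in knockouts and 134 to 233 CPM in controls (-0.97 ± 0.12, adjusted p = 2.24e-06).

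Cdkn1a had 285, 365, 357, 465 and 408 CPM in knockouts, against 23.5, 40.04 and 70.5 CPM in controls (3.10 ± 0.28, adjusted p = 1.27e-06). Cdkn1a encodes the cell cycle inhibitor p21 and every knockout stood far above every control. Cdkn1c, which encodes the related inhibitor p57, rose less (0.78 ± 0.12, adjusted p = 1.80e-05). Cdkn1a is also a p53 target, and of the other 20 tested on that list 2 were higher and 3 lower, with a median of 0.02, beside a median of 0.00 over all genes. Bbc3, a cell death activator, was higher at 2.04 to 5.16 CPM in knockouts and 0.501 to 2.49 CPM in controls (1.32 ± 0.33, adjusted p = 0.00675), with an overlap of the groups. Tigar, which lowers glycolytic flux, was lower (-0.85 ± 0.11, adjusted p = 1.80e-06), as was Phlda3, an AKT repressor (-0.73 ± 0.10, adjusted p = 2.43e-06). Among 15 tested cell cycle genes, Cdkn1c was the 1 that was higher, and none was lower.

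Cpne2 was at 37.5, 42.7, 48.5, 40.6 and 53.4 CPM in knockouts and at 9.51, 10.8 and 11.9 CPM in controls (2.07 ± 0.12, adjusted p = 9.21e-15). Copine 2 is a calcium-dependent phospholipid-binding protein, and it had the smallest p of all genes tested. In knockouts Atp8a2 reached 10.03, 10.2, 12.3, 6.596 and 14.2 CPM, against 0.981, 2.19 and 3.02 CPM in controls (2.32 ± 0.24, adjusted p = 2.03e-08). Atp8a1 had 30.7, 24.7, 32.7, 25.5 and 35.8 CPM in knockouts, against 78.4, 87.1 and 98.5 CPM in controls (-1.55 ± 0.10, adjusted p = 2.81e-13). Both encode phospholipid flippases, and they moved in opposite directions, each with no overlap of the groups. Dupd1 was at 119, 124, 100.3, 99.8 and 135 CPM in knockouts and at 15.2, 17.1 and 30.9 CPM in controls (2.59 ± 0.15, adjusted p = 5.58e-11). Dupd1 is a muscle phosphatase of the dual-specificity family, in which 1 of 19 tested genes was higher and 3 were lower. In knockouts Prss55 reached 8.64, 6.86, 10.7, 6.99 and 7.55 CPM, against 0.406, 0.585 and 1.21 CPM in controls (3.55 ± 0.25, adjusted p = 8.54e-13). Prss55 encodes a serine protease and was close to 0 in controls. Gstm7, Tead4, Cilp and the transcript Srrm4os completed, together with genes described below, the 15 largest rises at an average log2 CPM of 2 or more, with log2 fold changes between 1.62 (Srrm4os) and 2.05 (Gstm7). Srrm4os is named as an antisense transcript, and the sources used here do not say whether the counting used strand.

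**Figure D2:**
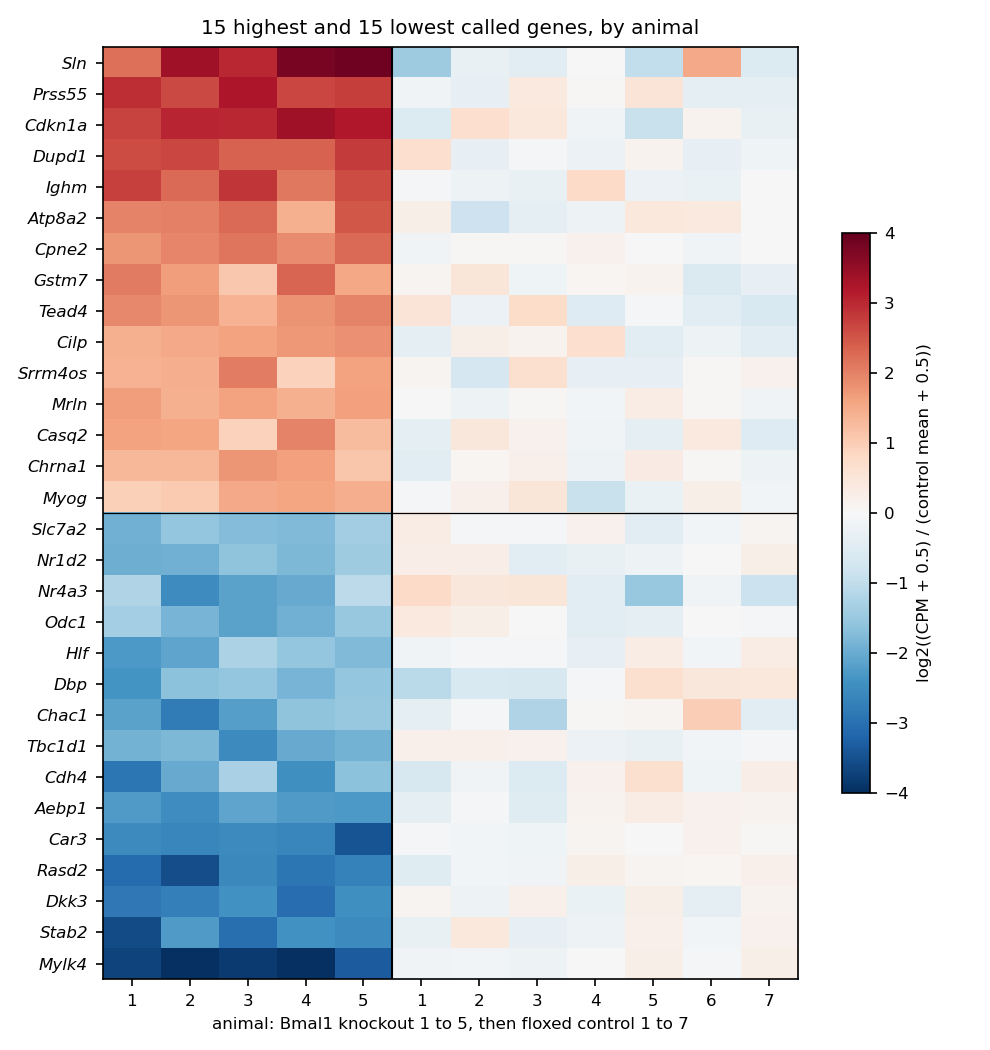
Each row is a gene and each column an animal, knockouts 1 to 5 left of controls 1 to 7. Colour gives log2 of CPM + 0.5 over the control mean + 0.5, for the 15 highest (top) and 15 lowest (bottom) called genes at an average log2 CPM of 2 or more; Sln in control 6 and Nr4a3 in controls 5 and 7 depart most visibly from the other controls.

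At that level of expression the largest fall was in Mylk4, a kinase of the myosin light chain kinase family. Mylk4 had 29.6, 21.1, 27.1, 19.6 and 39.2 CPM in knockouts, against 339.95, 379 and 467 CPM in controls (-3.85 ± 0.22, adjusted p = 1.54e-09). The lowest control stood far above the highest knockout. Mylk2, the skeletal muscle myosin light chain kinase, fell less, to 212 to 280 CPM in knockouts, against 354 to 472 CPM in controls (-0.80 ± 0.09, adjusted p = 5.22e-08). Car3 was at 289.6, 275, 291, 273 and 154 CPM in knockouts and at 1501, 1684 and 1879.8 CPM in controls (-2.72 ± 0.21, adjusted p = 1.14e-07). Carbonic anhydrase III is an abundant cytosolic protein of muscle, and knockout 5 stood below the other knockouts. In the same family Car14 (0.60 ± 0.11, adjusted p = 0.000377) and Car2 (0.72 ± 0.18, adjusted p = 0.00604) were higher in knockouts, the groups overlapping for both.

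In knockouts Rasd2 reached 6.35, 4.48, 9.07, 7.303 and 8.33 CPM, against 40.9, 59.9 and 67.7 CPM in controls (-3.01 ± 0.16, adjusted p = 3.05e-13). Rasd2 encodes a small GTPase. Aebp1 had 13.6, 11.6, 15.1, 13.7 and 13.3 CPM in knockouts, against 48.1, 73.8 and 82.5 CPM in controls (-2.32 ± 0.14, adjusted p = 3.78e-12). Aebp1 encodes a carboxypeptidase-like matrix protein. Stab2 was at 0, 0.747, 0.237, 0.628 and 0.516 CPM in knockouts and at 4.26, 5.01 and 7.49 CPM in controls (-3.58 ± 0.36, adjusted p = 1.02e-08). Stabilin-2 is a hyaluronan and scavenger receptor of sinusoidal endothelium, and it was at or near 0 in all knockouts. The 8 endothelial markers summed to 154 to 206 CPM in knockouts and 139 to 185 CPM in controls, and none of them passed the test. Stab1, Lyve1 and Mrc1, listed with Stab2 as markers of stabilin-bearing endothelium, did not pass either, and the 4 together summed to 20.9 to 25.2 CPM in knockouts and 23.8 to 35.7 CPM in controls. Whether fewer cells of a type or less RNA per cell lay behind such a difference cannot be told apart in whole muscle. Cdh4, a cadherin, fell by 2.08 ± 0.34 (adjusted p = 0.000535). Chac1, a glutathione-degrading enzyme of the stress response, ran from 6.04 to 15.4 CPM in knockouts and from 19.4 to 88.9 CPM in controls (-2.02 ± 0.35, adjusted p = 0.00121). Nr4a3, an immediate early nuclear receptor, was at -1.80 ± 0.53 (adjusted p = 0.0429) with overlapping groups, and its adjusted p rose to 0.0594 to 0.111 on leaving out knockout 1, 2, 3 or 4 or control 1, 2, 3 or 6. Cib2, Sorbs2 and Slc4a4, which are among the 10 genes with the smallest p, lay between -1.59 and -1.42, each with no overlap.

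The lists of glucose handling were called mostly lower in knockouts. Of 5 tested glucose transporters, 3 were lower and none higher, beside 5.18% lower among all genes. In the other animals of the line 1 of the 5 was lower on chow and 1 in batch 2. In knockouts Slc2a3 reached 0.298, 0.407, 0.0789, 0 and 0.129 CPM, against 2.14, 3.58 and 4.84 CPM in controls (-4.18 ± 0.48, adjusted p = 1.48e-07). Slc2a3 RNA, which encodes GLUT3, was at or near 0 in every knockout and low in controls, so its fold change rests on few counts. Slc2a12, which encodes GLUT12, was lower by less (-0.79 ± 0.19, adjusted p = 0.00453). Slc2a4 had 93.7, 111, 82.5, 103 and 107 CPM in knockouts, against 107, 131 and 160.1 CPM in controls (-0.36 ± 0.11, adjusted p = 0.0380). GLUT4 is the insulin-responsive transporter; its groups overlapped, and its adjusted p rose over 0.05, up to 0.132, on leaving out knockout 1, 3 or 4 or control 1, 2 or 7. Tbc1d1 was at 7.45, 7.95, 4.497, 6.75 and 7.49 CPM in knockouts and at 23.6, 27.8 and 33.7 CPM in controls (-2.08 ± 0.16, adjusted p = 4.96e-11). TBC1D1 holds back GLUT4 vesicles until it is phosphorylated and its groups were far apart. Of 15 tested genes of GLUT4 traffic 3 were lower and none higher (median -0.10, or 0.05 without scaling). They included Rab10, which carries these vesicles (-0.51 ± 0.08, adjusted p = 5.05e-05).

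Of 22 tested insulin signalling genes 4 passed, beside 9.00% of all genes, and the median of the list was -0.04, or 0.11 without scaling. Grb14, an inhibitor of the insulin receptor, rose to 17.2 to 28.8 CPM in knockouts, against 9.44 to 14.9 CPM in controls (1.01 ± 0.15, adjusted p = 1.60e-05). Irs2, an insulin receptor substrate, fell to 7.81 to 12.5 CPM in knockouts, against 13.9 to 21.2 CPM in controls (-0.75 ± 0.14, adjusted p = 0.000187). Tsc1, part of the brake on mTORC1, fell by 0.49 ± 0.10 (adjusted p = 0.000986).

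Glycogen metabolism had 6 of 22 tested genes lower and none higher (median -0.18, or -0.02 without scaling). In knockouts Phka1 reached 132, 121, 132, 99.4 and 135 CPM, against 247, 269 and 332 CPM in controls (-1.17 ± 0.11, adjusted p = 3.91e-09). Phka1 encodes the muscle regulatory subunit of phosphorylase kinase, which starts glycogen breakdown. Pgm2 (-0.90 ± 0.11, adjusted p = 7.02e-07), Ppp1r3a, the glycogen-targeting subunit of protein phosphatase 1 (-0.71 ± 0.09, adjusted p = 7.55e-07), and Ugp2, which makes UDP-glucose (-0.49 ± 0.09, adjusted p = 0.000416), were also lower. For these 4 genes every knockout lay below every control.

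Glycolysis and lactate genes followed with 9 of 26 lower and 1 higher (median -0.22, or -0.06 without scaling). Pfkm had 741, 628, 662, 646 and 748 CPM in knockouts, against 995, 1060.02 and 1267 CPM in controls (-0.68 ± 0.09, adjusted p = 1.88e-06). Phosphofructokinase of muscle carries an E-box window printed above. Slc16a3, the lactate exporter MCT4, fell to 65.2 to 112 CPM in knockouts, against 129 to 177 CPM in controls (-0.87 ± 0.12, adjusted p = 2.98e-06). Ldha was at 602 to 852 CPM in knockouts and 870 to 1082 CPM in controls (-0.44 ± 0.09, adjusted p = 0.000771), and Gpd1 fell by 0.42 ± 0.09 (adjusted p = 0.00113). Among 14 genes of pyruvate entry, only Mpc1, a subunit of the mitochondrial pyruvate carrier, passed, and it was lower (-0.69 ± 0.12, adjusted p = 9.66e-05) with overlapping groups.

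Of 80 tested nuclear-encoded genes of complexes I, III and IV and the ATP synthase 39 were higher in knockouts and none was lower, while 41 did not pass. Complex II is not among these 80, because its genes were counted with the citric acid cycle. Among all genes 3.82% were higher. Of the 246 genes with an average log2 CPM over 8, 42 were higher and 41 lower, and of the 907 between 6 and 8, 81 were higher and 126 lower. Complex I had 13 of 37 genes higher, complex III 7 of 10, complex IV 10 of 16 and the ATP synthase 9 of 17. The medians were 0.26, 0.33, 0.31 and 0.29 in that order, or 0.41, 0.48, 0.46 and 0.44 without scaling. In complex IV 2 genes lay below 0, and in the other 3 lists none did. Cox5b was at 684, 475, 539, 604 and 548 CPM in knockouts and at 347, 388 and 471 CPM in controls (0.50 ± 0.09, adjusted p = 0.000268). In knockouts Ndufb9 reached 743, 670.1, 586, 643 and 665 CPM, against 441, 520.4 and 569 CPM in controls (0.41 ± 0.09, adjusted p = 0.00191). Atp5o had 656, 610.1, 524, 546 and 567 CPM in knockouts, against 340.5, 428 and 511 CPM in controls (0.46 ± 0.09, adjusted p = 0.000459). These subunits of complex IV, complex I and the ATP synthase were named for a small p within their lists. That choice favours genes above the list median with no overlap of the groups, as these were. Uqcr11 (0.44 ± 0.08, adjusted p = 0.000405) and Cyc1 (0.39 ± 0.09, adjusted p = 0.00249) stood for complex III.

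Transcripts of the mitochondrial genome did not share that direction. All 8 tested were below 0 in log2 fold change (median -0.33), and mt-Co1 alone passed. mt-Co1 was at 5417, 4608, 4517, 5171 and 4718 CPM in knockouts and at 6011, 6414 and 7673 CPM in controls (-0.43 ± 0.10, adjusted p = 0.00269). Its groups did not overlap. mt-Nd1 was at -0.35 ± 0.12 (adjusted p = 0.0773). It passed without knockout 4 (adjusted p = 0.0482), without control 1 (0.0229) and with no filter on low counts (0.00207). Of 77 mitochondrial ribosomal proteins 6 were higher and none lower (median 0.09), and of 84 cytosolic ribosomal proteins 1 was higher and none lower (median 0.01).

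**Figure D3:**
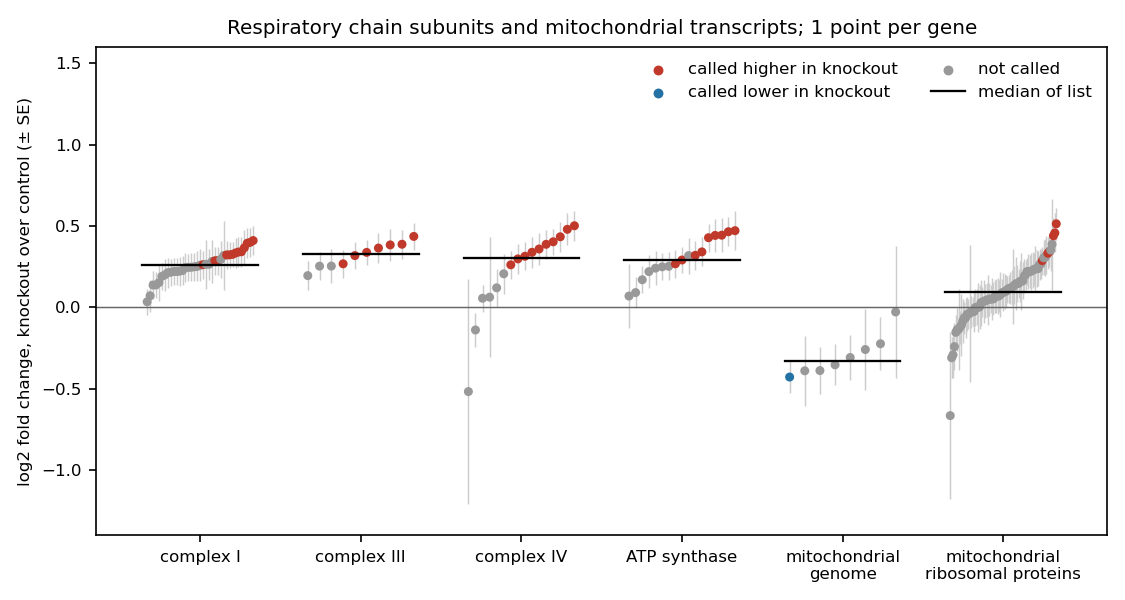
Log2 fold change (± standard error) of each tested gene by complex or list, ordered within each by size, with the list's median as a bar. Nuclear-encoded subunits gather around 0.26 to 0.33, mitochondrial genome transcripts around -0.33 and mitochondrial ribosomal proteins around 0.09.

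The citric acid cycle had 4 of 22 genes higher and 1 lower (median 0.15). In knockouts Me3 reached 27.5, 30.3, 28.01, 22.9 and 26.3 CPM, against 12.7, 13.6 and 18.8 CPM in controls (0.91 ± 0.11, adjusted p = 1.91e-07). Me3 encodes a mitochondrial malic enzyme. Sucla2, a subunit of succinyl-CoA ligase, rose by 0.45 ± 0.08 (adjusted p = 0.000175), and Mdh2, malate dehydrogenase, by 0.31 ± 0.09 (adjusted p = 0.0133). Fatty acid oxidation had 6 of 31 higher and 2 lower (median 0.11). Acadm had 447, 444, 361, 451 and 393 CPM in knockouts, against 238, 266 and 308 CPM in controls (0.64 ± 0.09, adjusted p = 1.84e-06). Medium-chain acyl-CoA dehydrogenase and Hadha (0.48 ± 0.10, adjusted p = 0.00108), both enzymes of beta oxidation, rose. Ucp3, an uncoupling protein (-0.59 ± 0.10, adjusted p = 8.45e-05), and Oxct1, the ketone-using enzyme (-0.78 ± 0.14, adjusted p = 0.000478), were the 2 that fell.

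Fatty acid uptake and storage was mixed, with 4 of 23 higher and 2 lower. Agpat3 was at 93.2, 88.8, 86.4, 84.3 and 87.4 CPM in knockouts and at 40.3, 48.8 and 57.4 CPM in controls (0.82 ± 0.09, adjusted p = 3.14e-08). Agpat3 encodes an acyltransferase of phospholipid and triglyceride synthesis. Fabp3, the fatty acid binding protein of heart and muscle, ran from 693 to 1377 CPM in knockouts and from 454 to 831 CPM in controls (0.91 ± 0.19, adjusted p = 0.00435), with knockout 3 inside the control range. Lpin1 (-0.45 ± 0.09, adjusted p = 0.000765) and the droplet protein gene Plin4 (-0.45 ± 0.11, adjusted p = 0.00408) were lower. Adipocyte markers summed to 89.1 to 193 CPM in knockouts and 27.6 to 208 CPM in controls, and their part in these values was not tested.

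Regulators of energy metabolism passed only downward, 5 of 20 in the PGC-1 and nuclear receptor list (median -0.09, or 0.07 without scaling). Prkab2, a subunit of AMP-activated protein kinase, fell to 140 to 200 CPM in knockouts, against 252 to 327 CPM in controls (-0.73 ± 0.09, adjusted p = 6.98e-07). Rxra, the partner of many nuclear receptors (-0.56 ± 0.10, adjusted p = 7.37e-05), and the kinase subunits Prkaa2 (-0.43 ± 0.09, adjusted p = 0.00164) and Prkag3 (-0.61 ± 0.16, adjusted p = 0.0173) were lower too. In NAD synthesis 2 of 21 were lower. Nampt, the rate-limiting enzyme of NAD salvage and a known clock output, was at 52.4 to 66.8 CPM in knockouts and 67.8 to 89.5 CPM in controls (-0.36 ± 0.11, adjusted p = 0.0237). Its adjusted p became 0.0520 without knockout 3 and 0.0981 without knockout 4.

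Hypoxia-inducible factors are the other subject of the study. None of the 13 tested genes of the HIF machinery passed, with a median of -0.01, or 0.14 without scaling. Of 35 tested HIF-induced genes 7 were lower and 1 higher (median -0.14, or 0.02 without scaling), against 5.18% lower and 3.82% higher among all genes. The lower ones included Slc2a3, Ldha and Bhlhe40, given above, and the higher one was Nfil3. None of 21 angiogenic ligands and receptors passed.

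Contractile genes changed in a few abundant members. In knockouts Mylpf reached 18723, 14225, 16586, 13043 and 16132 CPM, against 8070.02, 9808 and 12230.2 CPM in controls (0.68 ± 0.10, adjusted p = 6.16e-06). Tpm1 had 16289, 13023, 16200.3, 12207 and 17237 CPM in knockouts, against 20979, 23997 and 28498 CPM in controls (-0.68 ± 0.10, adjusted p = 6.66e-06). Mylpf encodes the fast regulatory light chain and Tpm1 a tropomyosin, and both separated the groups. Acta1 was at 15662, 15042, 16096, 16766 and 17825 CPM in knockouts and at 19620.2, 21799 and 23369 CPM in controls (-0.41 ± 0.08, adjusted p = 0.000911). Skeletal actin also lay below every control in each knockout. Myl1, a fast essential light chain, fell by 0.53 ± 0.13 (adjusted p = 0.00779) with overlapping groups, and none of 11 tested myosin heavy chains passed. Slow fibre markers summed to 215 to 983 CPM in knockouts and 335 to 1046 CPM in controls, and none passed.

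In the sarcomere and Z-disc list 6 of 22 were lower and none higher (median -0.15, or 0.00 without scaling). In knockouts Tcap reached 718, 747, 577, 697 and 704 CPM, against 1066, 1322 and 1731 CPM in controls (-1.03 ± 0.12, adjusted p = 2.93e-07). Telethonin caps titin at the Z-disc and its knockout values were all below those of any control. Actn3, the fast-fibre alpha-actinin (-0.45 ± 0.11, adjusted p = 0.00716), and Myoz1 (-0.40 ± 0.09, adjusted p = 0.00278) were lower by less, and the Actn3 groups overlapped. Channels and pumps of the fibre membrane had 6 of 18 lower and 2 higher. The potassium channels Kcnc1 (-0.68 ± 0.10, adjusted p = 1.10e-05) and Kcnc4 (-0.73 ± 0.17, adjusted p = 0.00569) were among the lower ones, and Fxyd1, a regulator of the sodium pump, was higher (0.38 ± 0.09, adjusted p = 0.00353).

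Genes of the neuromuscular endplate rose where they passed, 4 of 14 higher and none lower (median 0.16). Chrna1 had 31.4, 30.97, 42.6, 38.9 and 26.8 CPM in knockouts, against 8.85, 12.6 and 15.4 CPM in controls (1.498 ± 0.16, adjusted p = 1.48e-07). Chrnb1 was at 23.03, 17.2, 16.5, 16.9 and 22.01 CPM in knockouts and at 6.33, 7.17 and 10.3 CPM in controls (1.28 ± 0.14, adjusted p = 1.47e-08). These encode the alpha and beta subunits of the muscle acetylcholine receptor, and both separated the groups. Colq, the collagen tail of acetylcholinesterase (1.23 ± 0.26, adjusted p = 0.00120), and Lrp4, the agrin receptor (1.67 ± 0.37, adjusted p = 0.00171), were low in level and overlapped slightly. Of 18 tested myogenic regulators 3 were higher and 2 lower (median -0.11, or 0.05 without scaling). In knockouts Myog reached 10.7, 11.3, 15.9, 16.6 and 15.2 CPM, against 2.598, 5.096 and 7.55 CPM in controls (1.41 ± 0.21, adjusted p = 1.03e-05). Myogenin is a factor of muscle differentiation, and Mybph, a myosin binding protein, rose beside it at 171 to 249 CPM in knockouts and 65.2 to 92.5 CPM in controls (1.27 ± 0.15, adjusted p = 5.70e-06). Vgll2, a TEAD cofactor, was lower (-1.12 ± 0.23, adjusted p = 0.00353), with knockout 4 just above the lowest control.

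Stress lists fell more often than they rose. Of 21 tested genes of the integrated and endoplasmic reticulum stress response 6 were lower and none higher (median -0.21, or -0.06 without scaling). Herpud1 had 32.9, 41.4, 40.6, 32.5 and 43.2 CPM in knockouts, against 68.5, 72.6 and 83.4 CPM in controls (-0.96 ± 0.09, adjusted p = 2.23e-09). Herpud1 acts in the removal of misfolded proteins and was lower in each knockout than in any control. Among glutathione transferases and NRF2 targets 7 of 31 were lower and 1 higher (median -0.08, or 0.08 without scaling). The lower ones included Gpx3, a secreted peroxidase, at 62.0 to 84.0 CPM in knockouts and 142 to 164 CPM in controls (-1.12 ± 0.20, adjusted p = 0.000960). Txnrd1, thioredoxin reductase (-0.70 ± 0.10, adjusted p = 5.70e-06), and Gclc, which starts glutathione synthesis (-0.69 ± 0.15, adjusted p = 0.00115), fell as well. Gstm7 was the 1 that rose, to 4.26 to 10.8 CPM in knockouts, against 1.02 to 2.67 CPM in controls (2.05 ± 0.24, adjusted p = 8.42e-08).

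Polyamine metabolism had 5 of 16 genes lower and 2 higher (median -0.18, or -0.02 without scaling). Odc1 was at 5.76, 3.94, 3.16, 3.69 and 5.098 CPM in knockouts and at 11.3, 15.7 and 20.5 CPM in controls (-1.84 ± 0.22, adjusted p = 2.83e-06). Ornithine decarboxylase commits ornithine to this pathway, and its groups were far apart. Sms, spermine synthase, fell (-0.71 ± 0.13, adjusted p = 0.000328), and Oaz2, an antizyme that promotes the breakdown of ornithine decarboxylase, rose (0.57 ± 0.10, adjusted p = 0.000200). Amd1 was at 58.9 to 133 CPM in knockouts and 244 to 363 CPM in controls (-1.61 ± 0.28, adjusted p = 0.00115), and its near-identical copy Amd2 makes the split of reads between them uncertain. Slc7a2, a transporter of cationic amino acids including arginine, ran from 5.86 to 8.78 CPM in knockouts and from 17.3 to 29.4 CPM in controls (-1.72 ± 0.14, adjusted p = 5.18e-11).

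Atrophy genes under glucocorticoid and FOXO control had 5 of 25 lower and 1 higher (median -0.23, or -0.08 without scaling). In knockouts Mt1 reached 104, 105, 111, 132 and 123 CPM, against 30.2, 46.1 and 62.3 CPM in controls (1.37 ± 0.18, adjusted p = 3.83e-05). Metallothionein 1 was the 1 that rose. Zbtb16, a glucocorticoid-induced factor (-0.71 ± 0.11, adjusted p = 2.05e-05), fell. None of 22 genes of autophagy and mitophagy passed. Among secreted factors Tph1, the enzyme that starts serotonin synthesis, was higher (1.26 ± 0.33, adjusted p = 0.010) and Ostn, musclin, was lower (-0.58 ± 0.11, adjusted p = 0.000198). Jun, an immediate early factor, fell to 51.9 to 62.5 CPM in knockouts, against 91.9 to 126 CPM in controls (-0.90 ± 0.12, adjusted p = 2.28e-06).

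An immunoglobulin transcript rose while the other listed markers of its cell type did not pass. Ighm had 311, 228, 338, 200.3 and 286 CPM in knockouts, against 37.6, 40.03 and 79.5 CPM in controls (2.55 ± 0.21, adjusted p = 3.39e-07). Ighm encodes the heavy chain of immunoglobulin M, a B cell product, and all knockouts lay above all controls. The other 6 B and plasma cell markers summed to 22.8 to 49.1 CPM in knockouts and 17.2 to 67.3 CPM in controls. Of these, Cd79a, Cd79b and Ms4a1 never passed 1 CPM in any library, and none of the 3 tested differed by the test. Of 6 immunoglobulin constant genes tested by annotated type, Ighm was the 1 that was higher. Another 1, not among the listed markers, was lower. Pericyte and smooth muscle markers summed to 270 to 337 CPM in knockouts and 233 to 274 CPM in controls, and red blood cell markers to 529 to 1364 CPM and 463 to 925 CPM in the same order, with no member of either list passing. Macrophage markers summed to 45.4 to 73.7 CPM in knockouts and 46.6 to 71.7 CPM in controls.

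Of 25 tested matrix and fibrosis genes 2 were higher and none lower (median 0.07), and of 30 collagen chains 2 were higher and none lower, beside 3.82% higher among all genes. The collagen median was 0.27, or 0.42 without scaling, with 25 of the 30 above 0. In the other animals of the line it was -0.0024 on chow and -0.00097 in batch 2. In the list of WNT and BMP antagonists 1 of 18 was higher and 3 lower (median -0.15, or 0.00 without scaling). The 3 lower ones include Aebp1, the carboxypeptidase-like matrix protein given above, which the name of the list does not describe. The higher one was Smoc2, a matrix protein (0.44 ± 0.10, adjusted p = 0.00191), and Dkk3, a secreted protein of the Dickkopf family, fell most.

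Dkk3 lies near Arntl, on chromosome 7 (GRCm38, GENCODE M21), and the neighbourhood was read as a whole. Within 2 Mb of Arntl (chr7:113207465-113314126) 15 other genes were tested, of which 4 were lower and none higher in knockouts. Among all genes 5.18% were lower, and 46 of the 951 tested genes on chromosome 7 were. All 4 lie on the side of lower coordinates, 301 to 1096 kb from Arntl. Dkk3 was at 0.695, 0.815, 1.105, 0.5497 and 1.097 CPM in knockouts and at 6.24, 8.94 and 9.75 CPM in controls (-3.23 ± 0.25, adjusted p = 8.64e-12). In knockouts Mical2 reached 14.6, 19.2, 15.2, 16.8 and 17.2 CPM, against 35.9, 42.8 and 46.4 CPM in controls (-1.36 ± 0.10, adjusted p = 2.07e-12). Dkk3 (chr7:112116017-112159057) and Mical2 (chr7:112225856-112413106), which encodes an actin-oxidising enzyme, separated the groups fully. Tead1, a partner of YAP, fell by 0.51 ± 0.09 (adjusted p = 0.000144), and Usp47, a deubiquitinase, by 0.36 ± 0.08 (adjusted p = 0.00297). On the other side of Arntl none of the 8 tested genes passed, the nearest being Btbd10 at 1.5 kb (0.34 ± 0.22, adjusted p = 0.438). The sources used here do not give the strain background around the floxed allele, and its part in these values was not tested.

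**Figure D4:**
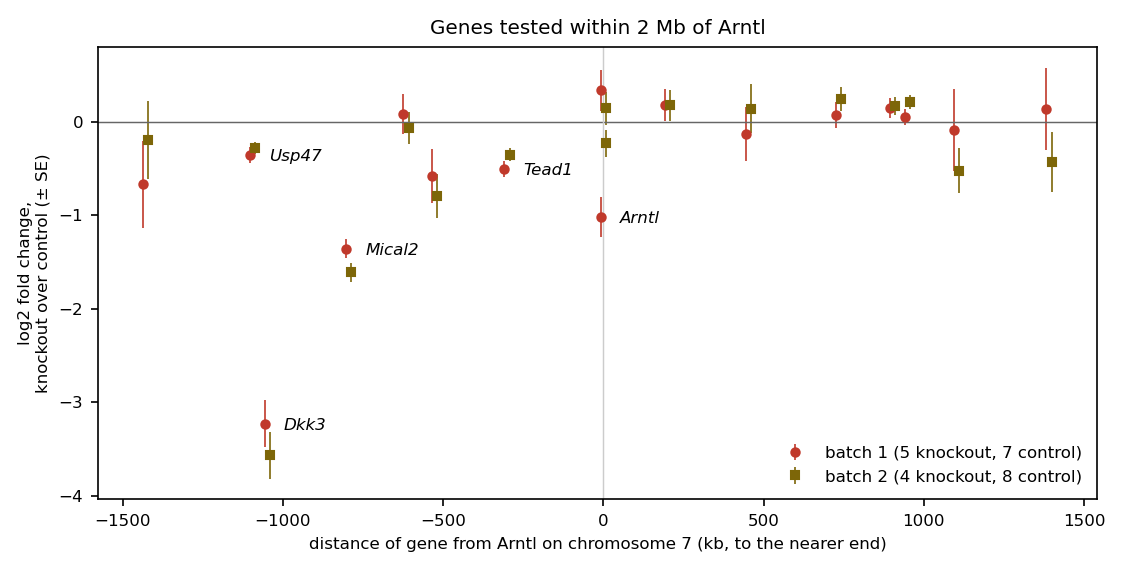
Log2 fold change (± standard error) of every tested gene within 2 Mb of Arntl by its distance in kb, for batch 1 and batch 2. The lowest values, Dkk3 and Mical2, lie 1048 and 794 kb to the left of Arntl in both batches, and genes to the right scatter around 0.

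Other animals of the line were compared next. In batch 2, on the same diet and with no animal shared, 363 of the 485 higher genes tested there passed again (74.8% of the batch 1 list and 52.0% of the batch 2 list) and 440 of the 661 lower genes did (66.6% and 64.9%). Batch 2 called 5.59% of 12565 genes higher and 5.44% lower. The sign was shared by 99.4% of the higher and 98.2% of the lower genes. A test of the difference between the batches called 1 of 12565 genes (0.00796%), Shisa2, at -0.60 ± 0.10 (adjusted p = 0.00755), with 716 genes under 0.05 before adjustment and 2 called by DESeq2. Shisa2 was at 42.8 to 48.6 CPM in batch 1 knockouts and 37.7 to 43.6 CPM in batch 1 controls, and at 62.4 to 70.8 CPM in batch 2 knockouts and 33.01 to 42.3 CPM in batch 2 controls. Without knockout 8 of batch 2 its adjusted p was 0.0521, and with no scaling 0.149. In batch 2 Arntl overlapped, at 7.37 to 9.37 CPM in knockouts and 7.69 to 11.6 CPM in controls. In the joint fit it differed by -1.01 ± 0.14 in batch 1 and by -0.23 ± 0.15 in batch 2; the difference of -0.78 ± 0.20 did not pass (adjusted p = 0.701).

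On chow, with 3 knockouts and 4 controls, fewer genes passed, 1.55% higher and 2.29% lower. Of the genes called on high-fat diet, 152 higher and 234 lower ones were called on chow too, which is 31.1% and 35.4% of the high-fat lists and 76.8% and 80.1% of the chow lists. The sign was shared by 94.5% of the higher and 95.9% of the lower genes. Of 12762 genes 0 (0%) passed the edgeR test of the difference between the diets, with 575 under 0.05 before adjustment and 3 called by DESeq2. Sln, at 3.62 ± 0.47 on high-fat diet and 1.23 ± 0.73 on chow, differed by 2.39 ± 0.90 (adjusted p = 1.00). The smallest p-values belonged to Pak1, Sesn1 and Cited2. Pak1, a kinase of the cytoskeleton, was at 0.85 ± 0.12 on high-fat diet and -0.20 ± 0.16 on chow, a difference of 1.05 ± 0.20 (adjusted p = 0.0688). Sesn1, a stress-induced regulator of mTORC1, was at -0.06 ± 0.16 on high-fat diet and 1.22 ± 0.19 on chow, a difference of -1.28 ± 0.25 (adjusted p = 0.0688). Cited2, a transcriptional coregulator that restrains HIF-1, fell on high-fat diet by 0.92 ± 0.11, against -0.10 ± 0.14 on chow, a difference of -0.82 ± 0.18 (adjusted p = 0.187). These tests turned on single animals and on the method. Pak1 passed without knockout 5 (adjusted p = 0.00514), control 1 (0.0480) or control 5 (0.0211). Sesn1 passed without control 1 (adjusted p = 0.0480) or chow knockout 2 (0.000237), and Cited2 without chow knockout 2 (0.00212). All 3 passed with no filter on low counts, Pak1 and Sesn1 with DESeq2 (adjusted p = 0.0128 and 0.0181), and Pak1 with no scaling (0.0186).

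**Figure D5:**
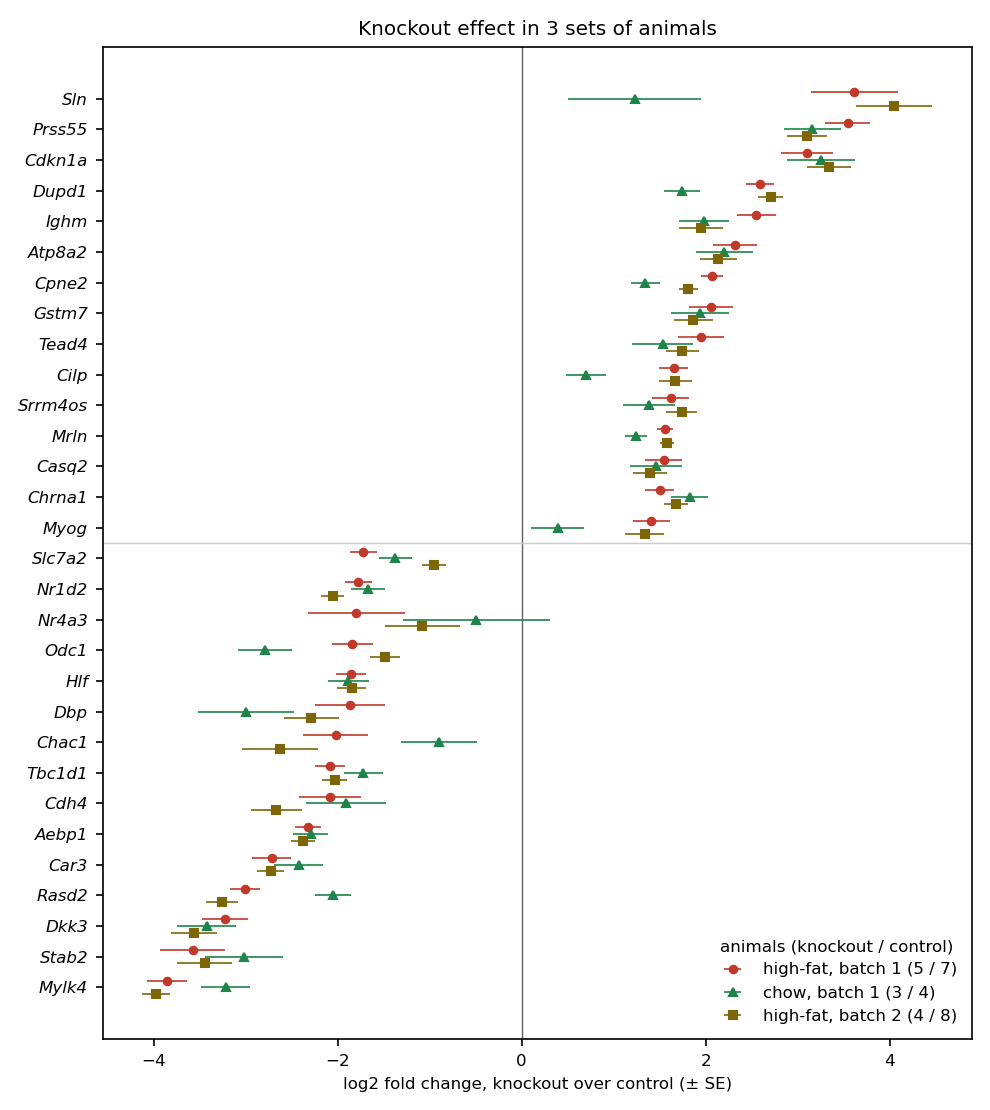
Log2 fold change of knockout over control (± standard error) for the 15 highest and 15 lowest called genes at an average log2 CPM of 2 or more, in high-fat batch 1, chow batch 1 and high-fat batch 2. Batch 1 values on high-fat diet chose these genes, and the 30 genes keep their sign in the other animals.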

How the data were processed

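RNA of whole gastrocnemius was made into QuantSeq 3′ forward libraries, per the labels' protocols. Per the submitters' processing notes, STAR 2.6.0 and HTSeq gave the deposited counts per gene symbol, on mm10 (GRCm38.p4). The sources used here do not give the strand setting. The deposited normalized counts are a signal scaled to one library size, for which those notes name edgeR 3.26.8. They served only in an alternative.

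The 19 libraries of batch 1 (4 groups) were fitted together in R 4.3.3 with edgeR 4.0.16: filterByExpr, TMM scaling, robust quasi-likelihood tests and Benjamini-Hochberg adjustment over 12762 genes. The diet difference is an interaction in that fit. The batch difference came from a joint fit of 24 libraries (12565 genes). The standard error is the log2 fold change divided by the root of F. CPM are TMM-scaled. The scripts were tested on simulated data. Depth was 10.0 to 14.7 M counts, so that a gene at 1 CPM rests on few reads. Nothing says that the animals came from separate litters or cages. The edgeR p-values set differences against the spread between animals. That spread was estimated over all libraries of each fit, chow groups included in the first.

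Genes named were Arntl; the 15 highest and 15 lowest called genes with an average log2 CPM of 2 or more, leaving out predicted and mitochondrial ones; the 10 smallest p; the clock genes listed; up to 4 members of each list; and genes near Arntl. A pair of list members is not reported here. The comparison, the gene lists and this rule were chosen with earlier results of these data known. Alternatives were DESeq2 1.42.0, limma 3.58.1 on log2 of the deposited normalized counts with a pseudocount of 1 or 0.25, other scalings and filters, an adjusted p of 0.01, a replicate block and leaving out each library.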

Additional observations from a re-analysis of the deposited data

Results flagged for a closer look

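For each gene named in the report, the highest or lowest animal was set against the rest of its group by Dixon's ratio, in 268 groups of values. Chance alone marks about 1 in 20 such groups, and 9 were marked. In knockouts, Car3 was at 154 CPM in animal 5, against 273 to 291 CPM in the other 4. Among controls, animal 1 was marked for Nr1d1 at 33.8 CPM (53.02 to 65.9 CPM in the other 6), for Mical2 at 35.9 CPM (41.9 to 46.4 CPM) and for Dupd1 at 30.9 CPM (15.2 to 21.0 CPM). Control animal 6 stood high in Sln at 9.82 CPM (0.835 to 3.05 CPM in the others) and in Chac1 at 88.9 CPM (19.4 to 48.5 CPM). Control animal 4 stood high in Ighm at 79.5 CPM (37.6 to 46.5 CPM), control animal 5 in Pak1 at 23.6 CPM (16.4 to 19.2 CPM), and control animal 2 low in Cdkn1c at 9.45 CPM (14.5 to 17.9 CPM). Each of these animals kept its side of the other genotype except control 5 for Pak1, which lay just above the lowest knockout (23.5 CPM).

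The knockout effect on Shisa2 differed between the batches by -0.60 on the log2 scale (batch 1 minus batch 2), the 1 gene to pass the test of that difference.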

How the results depend on the processing

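The count of 1149 called genes stayed within 1.5 times under every alternative run except an adjusted p under 0.01, which left 725 (297 higher, 428 lower). With no scaling 1227 were higher and 371 lower. Leaving out 1 library gave 983 to 1133 genes, 396 to 503 higher and 551 to 702 lower. Same-numbered knockouts and controls did not deviate together (correlations of -0.087 to 0.10, 1 of 5 best with its own number). This cannot show whether animals were paired by litter or cage. The replicate block kept only shared animal numbers, so it left out controls 6 and 7 and the chow libraries. For the diet difference it kept animals 1 to 3 of each group, and for the batch difference animals 8 and 9 of batch 2. Its results therefore differ from the main ones in animals as well as in the block. With the replicate block 994 genes passed, and Per2, Nfil3, Nr4a3 and Fabp3 did not. The diet difference, 0 genes, became 1 with no scaling, 8 with no filter, 3 with DESeq2, 3 with the block and 0 to 3 without 1 library. The batch difference, 1 gene, became 0 with no scaling or the block, 14 with no filter, 2 with DESeq2 and 0 to 2 without 1 library; the causes were not tested. The mitochondrial share difference ran from -5.11 to -3.17 points without 1 animal. Of 124 named genes that passed, 120 did so without any 1 library and none changed sign. Per1 and Cry2, which had not passed, ran from -0.073 to 0.41 and from -0.027 to 0.15. Cry1, Usp2 and mt-Nd1 had not passed and did so under some alternatives. Depth limits genes under an average log2 CPM of 2, where the median standard error was 0.39.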
